A study of Mus musculus with 3 samples.

Results

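Cycling plasmacytoid lineage cells are cells of the plasmacytoid dendritic cell (pDC) lineage that carried RNA of dividing cells. They were chosen by their counts of unique molecular identifiers (UMIs, each standing for 1 captured RNA molecule). Barcodes were kept from 1000 UMIs and 500 detected genes upward, with mitochondrial UMIs of no more than 10%. A member also needed at least 2 UMIs of Siglech, a surface lectin of pDC, at least 1 of Ly6d, a surface protein of early lymphoid and pDC precursors, and at least 3 of Mki67 and Top2a together, genes of a chromosome-coating protein and a DNA topoisomerase that dividing cells make. Barcodes with UMIs of 2 or more of Kit, Ctsg, Adgrg3 and Prtn3, genes of early progenitors and their granules, were left out. The rule found 2269 cells of the 28903 within the quality limits, and of the 29276 barcodes in all.

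All cells came from wild-type (WT) C57BL/6 mice and were grown into dendritic cells in culture with FLT3L, the growth factor on which dendritic cell development depends. There was 1 library for each of 3 conditions, made with the 10x Genomics Single Cell 3' v3 method. The first condition was 50 µM glutamine, the second 2 mM glutamine with 1 µM DON, a compound that resembles glutamine and inactivates glutamine-consuming enzymes, and the control was 2 mM glutamine alone. The number of mice behind each library is not given in the labels, and with 1 library per condition no difference could be tested. The 50 µM library held 1008 of the cycling plasmacytoid cells, the DON library 787 and the control library 474.

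As background, pDC are known for making large amounts of type I interferon when the receptors Tlr7 and Tlr9 meet viral nucleic acids inside the cell. In mice they arise in the bone marrow, and in FLT3L cultures, from progenitors that come to depend on the transcription factor Tcf4. Mature mouse pDC carry the chemokine receptor Ccr9 and divide little, while their precursors still divide.

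The cycling plasmacytoid cells held 10553304 UMIs in the 50 µM library, 11034775 in the DON library and 6576574 in the control library, with a median of 9628.5, 12060 and 10551 UMIs per cell in that order. Levels are given as CPM, the UMIs of a gene per 1000000 UMIs once the cells of 1 class in 1 library are pooled. Intervals are at 95% and cover counting error only, with exact Poisson bounds on CPM and exact Clopper-Pearson bounds on shares. Ratios are log2 of the treated over the control CPM after 5 CPM was added to each. The libraries shared 31 barcodes between 50 µM and DON, 22 between 50 µM and control and 20 between DON and control, and of the cycling plasmacytoid cells 1 barcode occurred as such a cell in both DON and control.

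Doublets, barcodes that hold RNA of more than 1 cell, were marked in each library but kept, since the rule has no doublet step. Scrublet marked 12.2% of the cycling plasmacytoid cells at 50 µM (123 cells), 21.2% with DON (167) and 34.0% in control (161). Of the non-cycling cells of the same gate it marked 2.51% at 50 µM, 5.51% with DON and 10.3% in control. The marked share was highest in control in both classes, and values without marked doublets stand beside many of the results. The score limits that Scrublet set differed between libraries, at 0.246, 0.225 and 0.195 in the order 50 µM, DON and control, and 51.3%, 55.0% and 63.4% of simulated doublets lay above them.

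Markers that the rule did not use were set beside the label as a description. The other 13 pDC markers summed to 5123 CPM at 50 µM, 4291 with DON and 3820 in control, against 971, 636 and 585 CPM in cycling cells of the same libraries with no UMI of Siglech or Ly6d. Those cells were chosen for lacking Siglech and Ly6d, so this contrast does not test the label. The same markers summed to 8384, 8454 and 8098 CPM in non-cycling cells of the gate. In all cells within the quality limits they summed to 2427, 2750 and 2530 CPM. Cox6a2 alone made up 433, 38.1 and 23.7 CPM of the sums in those cells without Siglech and Ly6d. In the cycling plasmacytoid cells 10 of the 13 reached 5 CPM at 50 µM, 10 with DON and 11 in control. In the cycling cells without Siglech and Ly6d the numbers were 5, 7 and 6. Bst2, the tetherin that marks mouse pDC, was the most abundant in the cycling plasmacytoid cells. The labels call the cultured cells conventional dendritic cells, while in the cycling plasmacytoid cells Xcr1, the chemokine receptor of type 1 conventional cells, stood at 1.90, 2.90 and 29.0 CPM in the order 50 µM, DON and control, and at 1.27, 0.805 and 11.2 CPM without marked doublets. The 9 markers of type 1 conventional cells summed to 2394, 2406 and 2375 CPM, of which Irf8, which pDC also express, made up 2270, 2252 and 2092 CPM. The 8 markers of type 2 conventional cells summed to 168, 174 and 198 CPM, and to 151, 148 and 183 CPM without marked doublets. The 10 markers of T, NK and innate lymphoid cells summed to 2.84, 4.80 and 16.7 CPM with marked doublets kept and to 2.31, 1.88 and 5.62 CPM without. Those of basophils and mast cells summed to 9.19, 1.81 and 13.5 CPM with doublets kept and to 2.31, 1.88 and 10.9 CPM without. Markers of mature dendritic cells (8 genes) summed to 113, 340 and 548 CPM with marked doublets kept and to 46.8, 62.2 and 108 CPM without them. Markers of neutrophils (10 genes) summed to 822, 1015 and 388 CPM with doublets kept and to 167, 269 and 227 CPM without. Markers of monocytes and macrophages (12 genes) summed to 577, 520 and 561 CPM with doublets kept and to 436, 363 and 447 CPM without. Their most abundant gene was Ccr2, at 301, 240 and 249 CPM with doublets kept. The 11 B lineage markers summed to 41.2, 38.9 and 35.0 CPM. The 6 progenitor markers outside the rule summed to 489, 550 and 493 CPM, of which Calr made up 481, 547 and 488 CPM. Markers of erythroid cells and megakaryocytes (8 genes) summed to 32.7, 439 and 76.8 CPM with doublets kept and to 22.5, 644 and 147 CPM without. Some of these levels move with several results, and their part in them was not tested except where values without marked doublets are given.

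Cells just inside and just outside each limit of the rule were counted. Among gate cells, 77 at 50 µM, 70 with DON and 60 in control had 2 UMIs of Mki67 and Top2a together, and 36, 48 and 33 had 3. The median sum in members was 21 UMIs at 50 µM, 23 with DON and 17 in control. Exactly 2 Siglech UMIs were seen in 111, 110 and 76 members in that order, and 138, 102 and 77 barcodes that passed every other limit had 1. Exactly 1 Ly6d UMI was seen in 121, 117 and 60 members, and 289, 248 and 208 barcodes that passed every other limit had none. Members with 1 of the 4 progenitor genes numbered 322, 217 and 119. The limit on 2 or more of those genes took out 196 otherwise fitting cells at 50 µM, 71 with DON and 41 in control, which was 16.3%, 8.28% and 7.96% of the cells that fitted the rest.

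Cycling plasmacytoid cells made up a larger share of both treated libraries than of the control library. They were 10.4% of the cells at 50 µM (1008 of 9649, 9.84 to 11.1%), 8.86% with DON (787 of 8887, 8.27 to 9.47%) and 4.57% in control (474 of 10367, 4.18 to 4.99%). The gate of Siglech and Ly6d as a whole differed less, with 26.1% of cells at 50 µM, 30.8% with DON and 28.1% in control. Within the gate, the cycling share was 40.0% at 50 µM (38.03 to 41.89%), 28.7% with DON (27.0 to 30.5%) and 16.3% in control (14.9 to 17.6%), and the 3 intervals did not overlap. These shares are a description, since the rule that chose the cells is also what is counted.

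The order of the libraries was the same without marked doublets and at equal depth. Without marked doublets the cycling share of the gate was 37.7% at 50 µM (885 cells), 25.3% with DON (620) and 12.6% in control (313). When each gate cell was thinned at random to 4000 UMIs and shallower cells were left out, 38.4%, 23.8% and 13.0% of the gate still had at least 3 UMIs of Mki67 and Top2a, against 43.0%, 29.1% and 16.7% of the same cells before thinning. Cells outside the gate showed the same order, with 36.4% (34.79 to 37.96%) of the cells without Siglech and Ly6d cycling by that limit at 50 µM, 28.7% (27.1 to 30.4%) with DON and 21.5% (20.4 to 22.8%) in control. Cycling plasmacytoid cells made up 24.9% of all cells with 3 UMIs of Mki67 and Top2a at 50 µM, 28.4% with DON and 20.6% in control.

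**Figure D1:**
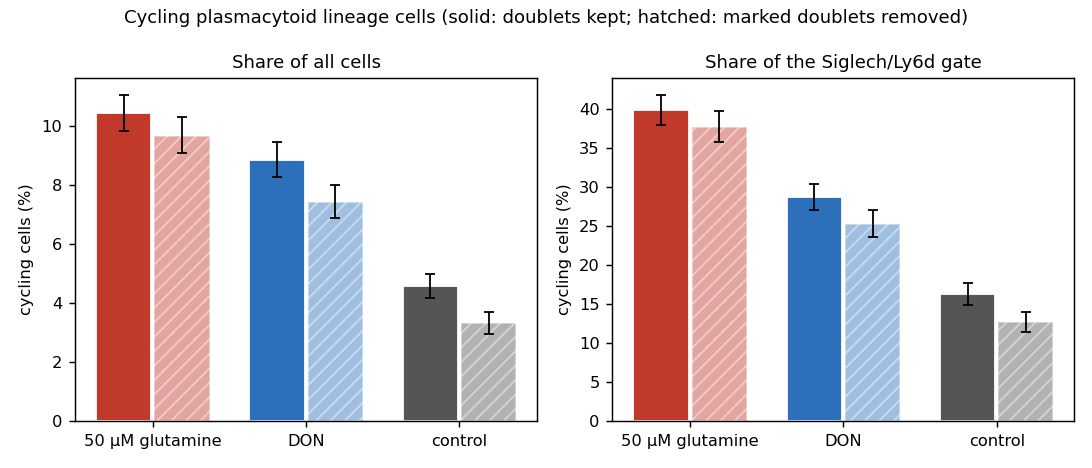
Share of cycling plasmacytoid lineage cells (%) among all cells within the quality limits (left) and among cells of the Siglech and Ly6d gate (right), by library, with doublets kept (solid) and with marked doublets removed (hatched). Bars are shares of 1 library each and error bars are exact 95% binomial intervals; both axes start at 0. The 50 µM bar is the tallest and the control bar the shortest in each set, at 40.0%, 28.7% and 16.3% of the gate for 50 µM, DON and control with doublets kept.

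S phase and G2 and M phase UMIs per member were close in the 3 libraries. After thinning to 4000 UMIs, a member held a median of 16 UMIs of 46 S phase genes at 50 µM, 14 with DON and 12 in control, and 83, 84 and 74 UMIs of 71 G2 and M phase genes. The medians without marked doublets were 16, 16 and 15 S phase UMIs and 88, 96 and 95 G2 and M phase UMIs. Non-cycling gate cells held a median of 2 S phase UMIs in each library and 6, 5 and 5 G2 and M phase UMIs. The G2 and M phase sum exceeded the S phase sum in 88.9% of members at 50 µM (86.8 to 90.8%), 89.4% with DON (87.0 to 91.5%) and 89.8% in control (86.7 to 92.4%). Without marked doublets these shares were 88.4%, 88.2% and 88.4%. With doublets kept, the same was seen in 87.9%, 87.8% and 89.3% of cycling cells with no UMI of Siglech or Ly6d. In non-cycling gate cells it was seen in 71.9%, 79.7% and 78.8%, so the share is not particular to the members. The lists differ in length and level, so the share does not give the proportion of cells in G2 or mitosis.

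Gate cells with and without RNA of Ccr9 differed in how many were cycling. Among gate cells thinned to 4000 UMIs, 21.5% of those with a Ccr9 UMI at 50 µM had at least 3 UMIs of Mki67 and Top2a (182 of 846, 18.8 to 24.4%), 13.2% with DON (212 of 1602, 11.6 to 15.0%) and 5.84% in control (116 of 1987, 4.85 to 6.96%). Among those without a Ccr9 UMI the shares were 48.0% at 50 µM (712 of 1482), 39.2% with DON (428 of 1092) and 30.2% in control (251 of 830). The order of the libraries was thus the same in both subsets, also without marked doublets, where cells with Ccr9 were at 19.8%, 11.3% and 4.50% and cells without it at 47.0%, 37.5% and 28.3%. The Ccr9-positive share of the thinned gate was itself lowest at 50 µM, at 846 of 2328 cells, against 1602 of 2694 with DON and 1987 of 2817 in control.

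Cells with and without a UMI were compared in this way for 9 genes in all. For Ccr9, H2-Ab1, Cd7, Il7r, Dntt and Klk1 the share was lower in cells with the gene in all 3 libraries. For Il7r, cells with a UMI were cycling in 29.6% at 50 µM, 15.5% with DON and 7.40% in control, and those without it in 43.7%, 28.3% and 17.7%. For Cox6a2 the share was higher in cells with the gene at 50 µM, nearly level with DON and lower in control, with 40.0%, 23.6% and 11.6% in cells with Cox6a2 against 33.3%, 23.9% and 15.2% in cells without it. For Ly6c2 it was higher in cells with the gene at 50 µM, with 40.7% against 37.2%, and lower with DON and in control, with 22.0% against 24.7% and 10.8% against 14.6%. Cells with a UMI of H2-Ab1, an MHC class II chain, were cycling in 26.1% at 50 µM, 16.8% with DON and 9.44% in control, and those without it in 52.5%, 32.9% and 26.2%. Cells with Cd7, a lymphoid surface protein, were cycling in 28.9% at 50 µM, 16.9% with DON and 8.19% in control, and those without it in 47.5%, 34.9% and 22.6%. For Flt3, the receptor of FLT3L, cells with a UMI were cycling in 38.1% at 50 µM, 27.3% with DON and 13.1% in control, and cells without it in 38.7%, 21.8% and 13.0%. For Flt3 the intervals of cells with and without the gene were apart with DON alone, where the share was higher in cells with it.

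**Figure D2:**
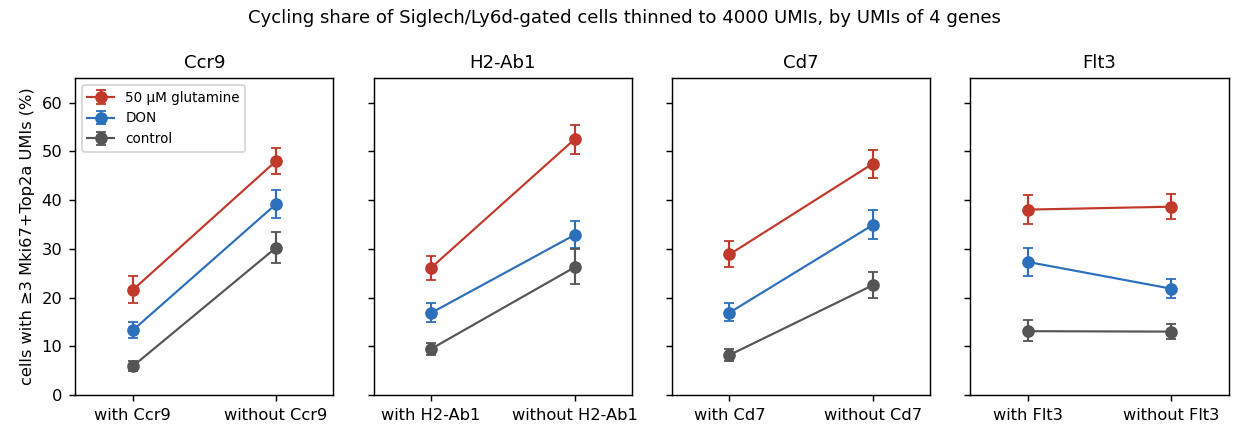
Share of Siglech and Ly6d gate cells with at least 3 Mki67 and Top2a UMIs (%), after thinning to 4000 UMIs, for cells with and without a UMI of Ccr9, H2-Ab1, Cd7 and Flt3 in each library, with marked doublets kept. Points are shares of 1 library and bars exact 95% binomial intervals. Cells without Ccr9, H2-Ab1 or Cd7 lie above cells with the gene in every library, with 21.5% against 48.0% for Ccr9 at 50 µM, and the Flt3 shares at 50 µM are 38.1% and 38.7%.

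Within each library the cycling cells were set beside the non-cycling cells of the gate (no UMI of Mki67 or Top2a) as a description, since the rule used these cells' counts. Among 5899 genes with 20 CPM or more in 1 of the classes in every library, 374 (6.34%) were 2-fold or more above non-cycling cells in all 3 libraries and 87 (1.47%) 2-fold or more below. The genes furthest above non-cycling cells were Hist1h1b (a linker histone), Pclaf (a partner of the replication clamp), Cenpf, Nusap1, Prc1, Tpx2, Kif11 (a spindle motor) and Birc5 (survivin). Nusap1, a spindle protein, had 360 CPM at 50 µM, 317 with DON and 255 in control in cycling cells, against 4.64, 2.28 and 1.56 CPM in non-cycling cells. All 71 measured G2 and M phase genes and 44 of 46 S phase genes were at least 1.5-fold higher in all 3 libraries, against 843 of 9147 genes in all (9.22%).

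Among the genes furthest below non-cycling cells were Ccr9, Timp2, Slamf9, Cmah, Tlr7, Lztfl1 and Pacsin1, the last of which helps signals of Tlr7 and Tlr9 in pDC. Ccr9 had 146 CPM at 50 µM, 238 with DON and 176 in control in cycling cells, against 954, 1398 and 1048 CPM in non-cycling cells. Tlr7 had 20.8, 13.2 and 13.8 CPM in cycling cells, against 79.5, 61.3 and 59.6 CPM in non-cycling cells. Of 31 measured pDC identity genes none was 1.5-fold higher in all 3 libraries and 20 were 1.5-fold lower, where 359 of 9147 genes in all were lower (3.92%). The list's medians within the libraries were -0.91 at 50 µM, -1.04 with DON and -1.17 in control.

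Tcf4, Irf8 and Cox6a2 differed less between the classes than Ccr9 and Tlr7. Tcf4 had 1247, 957 and 905 CPM in cycling cells in the order 50 µM, DON and control, against 1917, 1542 and 1603 CPM in non-cycling cells, and 162, 137 and 131 CPM in cycling cells outside the gate. Irf8, which dendritic cells need for their development, had 2270, 2252 and 2092 CPM in cycling cells, against 2910, 2657 and 2579 CPM in non-cycling cells. Spib, another factor of the pDC list, had 153, 139 and 110 CPM in cycling cells, against 306.5, 225.6 and 194.1 CPM in non-cycling cells. Tcf4, Irf8 and Spib were thus all lower in cycling cells in every library. Cox6a2, a cytochrome c oxidase subunit that mouse pDC express, was higher in cycling than in non-cycling cells at 50 µM, at 1104 against 894 CPM, and lower in the other libraries, at 555 against 613 CPM with DON and 485 against 652 CPM in control.

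A Ccr9 UMI was found in 20.5% of thinned members at 50 µM (18.0 to 23.1%), 32.1% with DON (28.8 to 35.4%) and 31.8% in control (27.6 to 36.2%). In cycling cells outside the gate, thinned to the same depth, Ccr9 UMIs were found in 2.00%, 3.39% and 2.77%, so the shares in members are above what such cells show. Without thinning the shares of members were 28.77%, 46.25% and 48.95% with doublets kept. Once marked doublets were removed, these unthinned shares were 26.21%, 41.45% and 39.62%, so that DON rather than control was highest. Marked doublets held 25.54% of the members' Ccr9 UMIs at 50 µM, 32.74% with DON and 52.99% in control. Members with a Ccr9 UMI had more Pacsin1, at 79.8 CPM at 50 µM, 83.8 with DON and 72.0 in control, against 39.4, 33.3 and 37.7 CPM in members without. They had less Cd93, a surface protein of early precursors, at 48.7, 35.7 and 28.8 CPM, against 73.2, 50.3 and 37.4 CPM in members without.

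Set against cycling cells outside the gate, 161 of 5754 genes (2.8%) were 2-fold or more higher in the cycling plasmacytoid cells in all 3 libraries and 25 (0.434%) lower. This comparison is a description too, since the classes were set apart by their Siglech and Ly6d UMIs. The pDC identity genes summed to 13810 CPM at 50 µM, 11800 with DON and 10390 in control in cycling plasmacytoid cells, against 5177, 3990 and 3599 CPM in cycling cells outside the gate. The lower count was 70 without marked doublets.

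**Figure D3:**
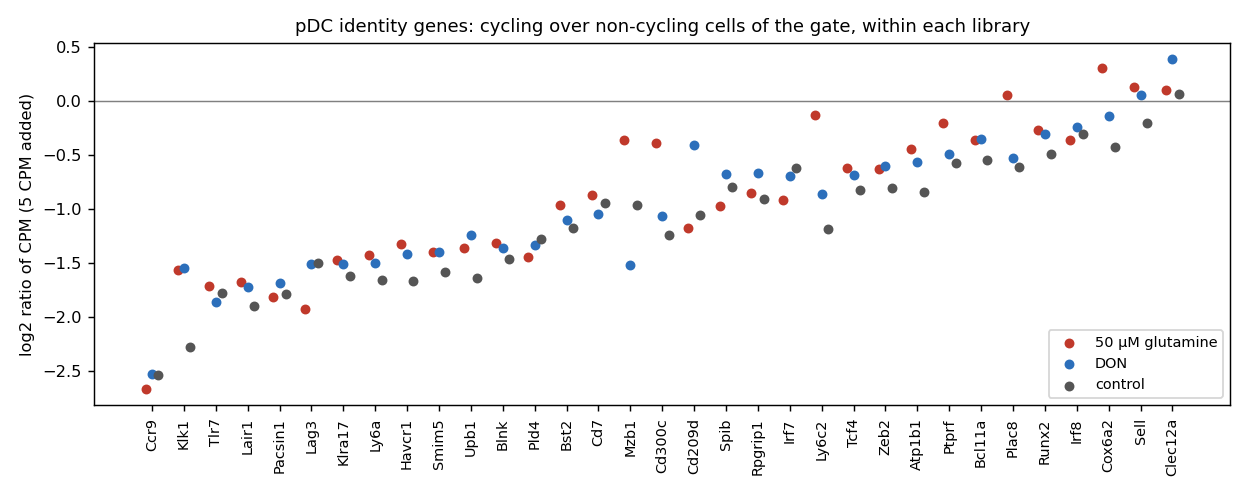
log2 ratio of CPM (5 CPM added) in cycling over non-cycling cells of the gate for the pDC identity genes, ordered by their mean, with 1 point per library. Most points lie below 0, with Ccr9 lowest between -2.67 and -2.53, while Irf8 lies between -0.36 and -0.24 and Cox6a2 is above 0 at 50 µM only.

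Cycling plasmacytoid cells at 50 µM glutamine were next set against those of the control library. Among 6299 genes of 20 CPM or more in either library, 21 (0.333%) were higher by 2-fold or more and 117 (1.86%) lower by as much. The median ratio over 9487 genes of at least 5 CPM was 0.13, and list medians are to be read against it. With DON, 11 of 6030 genes (0.182%) were higher by 2-fold or more and 31 (0.514%) lower, and the median over 9317 genes was 0.04. Lists were counted at 1.5-fold among genes of at least 5 CPM, where 341 genes at 50 µM were higher (3.59%) and 455 lower (4.8%), and with DON 31 were higher (0.333%) and 189 lower (2.03%). Both comparisons use the same control cells, so they are not independent of each other. Without marked doublets the 2-fold counts were 8 higher and 61 lower at 50 µM, and 4 higher and 24 lower with DON.

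Among the genes of at least 50 CPM, the 8 highest at 50 µM were Cox6a2, Phgdh, Plac8, Cdk6, Ngp, S100a9, Satb1 and Dusp6. Cdk6, the kinase partner of the D cyclins, had 98.9 CPM at 50 µM (93.0 to 105), 47.8 with DON and 42.3 in control. Satb1, an organiser of chromatin, had 73.5 CPM at 50 µM, 38.4 with DON and 32.8 in control, and Dusp6, which shuts off ERK kinases, had 66.2, 38.8 and 30.0 CPM. In these 3 genes the 50 µM level was the highest, and DON lay nearer to control than to 50 µM. The granule and calprotectin genes Ngp and S100a9 belonged to few cells: 5 cells held 86.9% of the Ngp UMIs and 69.4% of the S100a9 UMIs at 50 µM, and marked doublets held 89.5% and 82.2%.

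Asns and some other genes of the amino acid response were higher at 50 µM, and Asns with DON lay close to control. Asns, asparagine synthetase, which uses glutamine to make asparagine, had 31.8 CPM at 50 µM (336 UMIs, 28.5 to 35.4), 2.45 with DON (27 UMIs, 1.61 to 3.56) and 1.98 in control (13 UMIs, 1.05 to 3.38). Its log2 ratio was 2.40 at 50 µM (1.94 to 2.78) and 0.09 with DON (-0.40 to 0.55), and without marked doublets 2.43 and -0.03. The gene lies on chromosome 6 at 7675169 to 7693254 of GRCm38, minus strand. Its transcripts were found in 199 of 1008 cells at 50 µM, in 24 of 787 with DON and in 10 of 474 in control, and in 9.80%, 0.894% and 0.640% of cells after thinning to 4000 UMIs, against 0.971%, 0.253% and 0.531% of thinned non-cycling gate cells.

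Among the measured targets of Atf4, the factor that raises such genes when amino acids run short, 12 of 32 were at least 1.5-fold higher at 50 µM and 2 lower, with a median of 0.45 (0.44 without marked doublets). Shmt2, which makes one-carbon units in mitochondria, had 41.6 CPM at 50 µM, 22.1 with DON and 15.7 in control. Phgdh, the first enzyme of serine synthesis, had 145, 91.4 and 61.4 CPM, and Atf5, a factor related to Atf4, had 20.9, 6.98 and 4.26 CPM. Slc7a5, a carrier of large amino acids, had 42.2, 27.4 and 19.9 CPM. In each of these 50 µM was highest, DON intermediate and control lowest. The targets that were lower were Ddit4 (-0.90) and Atf3 (-0.87). With DON none of 31 measured targets was 1.5-fold higher and 2 were lower, Atf3 and Eif4ebp1, with a median of 0.08. Marked doublets held 76.9% of the members' Atf3 UMIs with DON and 67.3% in control. For Eif4ebp1 they held 43.6% with DON and 66.4% in control.

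The Asns promoter is shown because it holds a match to the composite element known to bind Atf4. The sequence is that of RefSeq for GRCm38.p6, chr6:7693160-7693459, minus strand, from 250 bases before to 50 after the start, with the match to TGATGNAAN in capitals.
Asns: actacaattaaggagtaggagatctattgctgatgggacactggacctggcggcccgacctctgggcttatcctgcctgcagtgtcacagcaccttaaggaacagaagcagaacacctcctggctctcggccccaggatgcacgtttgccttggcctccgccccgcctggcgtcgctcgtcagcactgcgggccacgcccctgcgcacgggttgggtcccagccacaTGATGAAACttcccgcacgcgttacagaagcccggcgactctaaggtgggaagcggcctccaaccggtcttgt
The match starts at base 228 of the 300. Searched on both strands, the motif was in 14 of 39 promoter windows of Atf4 targets (35.9%), from 35 of 43 genes that had an entry, against 3.95% of 32851 windows in all.

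Asns was higher in cycling than in non-cycling gate cells at 50 µM. At 50 µM, Asns had 3.25 CPM in gate cells without Mki67 and Top2a UMIs, 7.39 in those with 1 to 2, 29.7 in those with 3 to 20 and 33.4 in those with more than 20. In the DON library the same classes had 0.547, 2.12, 2.79 and 2.23 CPM. Cycling cells outside the gate were higher still, at 117 CPM at 50 µM, against 8.68 with DON and 8.43 in control. The log2 ratio of Asns at 50 µM was 2.40 in cycling and 0.43 in non-cycling gate cells, and of Atf4 targets 12 of 32 were 1.5-fold higher in cycling cells and 2 of 29 in non-cycling cells. The 3.25 CPM of Asns in non-cycling cells at 50 µM is below the 5 CPM added to each level, which makes the ratio of 0.43 smaller in size. The difference between the classes was not tested.

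The serine and one-carbon genes showed 5 of 14 members higher at 50 µM and none lower, with a median of 0.41, and none of 13 higher or lower with DON, with a median of 0.08. Psat1, the second enzyme of serine synthesis, had 52.7 CPM at 50 µM, 37.0 with DON and 33.3 in control. Of genes for glutamine uptake and use, 4 of 22 were higher at 50 µM, among them Gclc, the enzyme that starts glutathione synthesis, at 34.5 CPM against 19.6 in control. Purine synthesis genes had 2 of 14 higher at 50 µM, Impdh2 (202 CPM, against 138 with DON and 130 in control) and Adss (95.5, 76.8 and 60.8 CPM), with a median of 0.35 and 0.19 without marked doublets. Of pyrimidine and deoxynucleotide genes 1 of 19 was higher at 50 µM, Rrm1, a subunit of ribonucleotide reductase, at 217 CPM against 165 with DON and 132 in control. Without marked doublets the ratios at 50 µM were 0.44 for Psat1, 0.52 for Impdh2, 0.45 for Adss and 0.46 for Rrm1, all under 1.5-fold. None of the purine, pyrimidine or glutamine genes passed 1.5-fold with DON.

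Genes of glycolysis were lower in both treated libraries, and more so at 50 µM. At 50 µM 15 of 20 measured genes were at least 1.5-fold lower and none higher, with a median of -1.18, and with DON 10 of 20 were lower and none higher, with a median of -0.54. Pgk1, which makes ATP in glycolysis, had 159 CPM at 50 µM (152 to 167), 367 with DON (355 to 378) and 578 in control (559 to 596). Aldoa, the aldolase of most tissues, had 149, 393 and 606 CPM, and its relative Aldoc had 2.37, 27.5 and 50.2 CPM. Slc16a3, a lactate exporter, had 1.90, 6.34 and 37.7 CPM. Every one of these was ordered with 50 µM lowest and control highest. Exceptions in the list at 50 µM were Hk1 (0.14), Slc16a1 (0.45) and Pfkfb4 (0.04), which had positive ratios below 1.5-fold.

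Targets of the hypoxia factor showed the same order. At 50 µM 13 of 24 were lower and none higher, with a median of -0.76, and with DON 8 of 24 were lower and none higher, with a median of -0.51. Ankrd37, a small ankyrin repeat protein induced by hypoxia, was the lowest of all genes of at least 50 CPM at 50 µM, with 4.36 CPM (46 UMIs, 3.19 to 5.81), against 38.5 with DON (34.9 to 42.4) and 126 in control (118 to 135). Its log2 ratio was -3.81 at 50 µM (-4.13 to -3.46) and -1.59 with DON (-1.84 to -1.34). Mif, a cytokine and hypoxia target, had 189, 530 and 774 CPM, Egln3, an oxygen sensor, had 2.65, 6.71 and 25.2 CPM, and Bnip3, a mitophagy receptor, had 14.0, 15.8 and 49.0 CPM.

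The Ankrd37 promoter is shown because it holds 4 matches to the core letters of the hypoxia element. The sequence is that of RefSeq for GRCm38.p6, chr8:45999801-46000100, minus strand, with matches to ACGTG or GCGTG on either strand in capitals, 2 of which overlap.
Ankrd37: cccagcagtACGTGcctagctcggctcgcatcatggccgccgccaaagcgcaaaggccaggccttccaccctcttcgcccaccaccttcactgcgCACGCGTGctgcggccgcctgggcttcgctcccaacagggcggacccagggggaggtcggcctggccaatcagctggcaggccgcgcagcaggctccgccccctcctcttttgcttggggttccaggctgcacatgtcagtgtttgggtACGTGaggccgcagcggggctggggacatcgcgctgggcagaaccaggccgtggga
The core was in 27 of 33 windows of glycolysis genes (81.8%) and in 28 of 34 of hypoxia targets (82.4%), against 43.8% of 32851 windows in all.

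These lists had the same direction in the non-cycling cells of the gate, with medians for glycolysis of -0.93 at 50 µM and -0.49 with DON, and for hypoxia targets of -0.39 and -0.41. Removing marked doublets left the glycolysis medians in cycling cells at -1.16 and -0.56 and the hypoxia medians at -0.65 and -0.57. In gate cells without Mki67 and Top2a UMIs, Ankrd37 had 3.56 CPM at 50 µM, 35.9 with DON and 101 in control, in the same order as in the cycling cells.

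Genes of cholesterol synthesis had medians of opposite sign in the treated libraries. The median was -0.39 at 50 µM, with 3 of 24 lower and none higher, and 0.30 with DON, with 1 of 24 higher and none lower. All 24 measured genes had ratios below 0 at 50 µM and above 0 with DON, with doublets kept. Fdps, which makes farnesyl diphosphate, had 286 CPM at 50 µM (276 to 297), 611 with DON (596 to 625) and 484 in control (468 to 501). The gene past 1.5-fold with DON was Acat2, an acetyl-CoA acetyltransferase, at 22.8 CPM at 50 µM, 46.0 with DON and 28.7 in control, and its ratio was 0.31 without marked doublets. Without marked doublets the list's median was -0.60 at 50 µM and 0.13 with DON. Of fatty acid genes 4 of 13 were lower at 50 µM, led by the desaturase Scd2 at 122 CPM, against 357 with DON and 287 in control, and none passed 1.5-fold with DON.

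**Figure D4:**
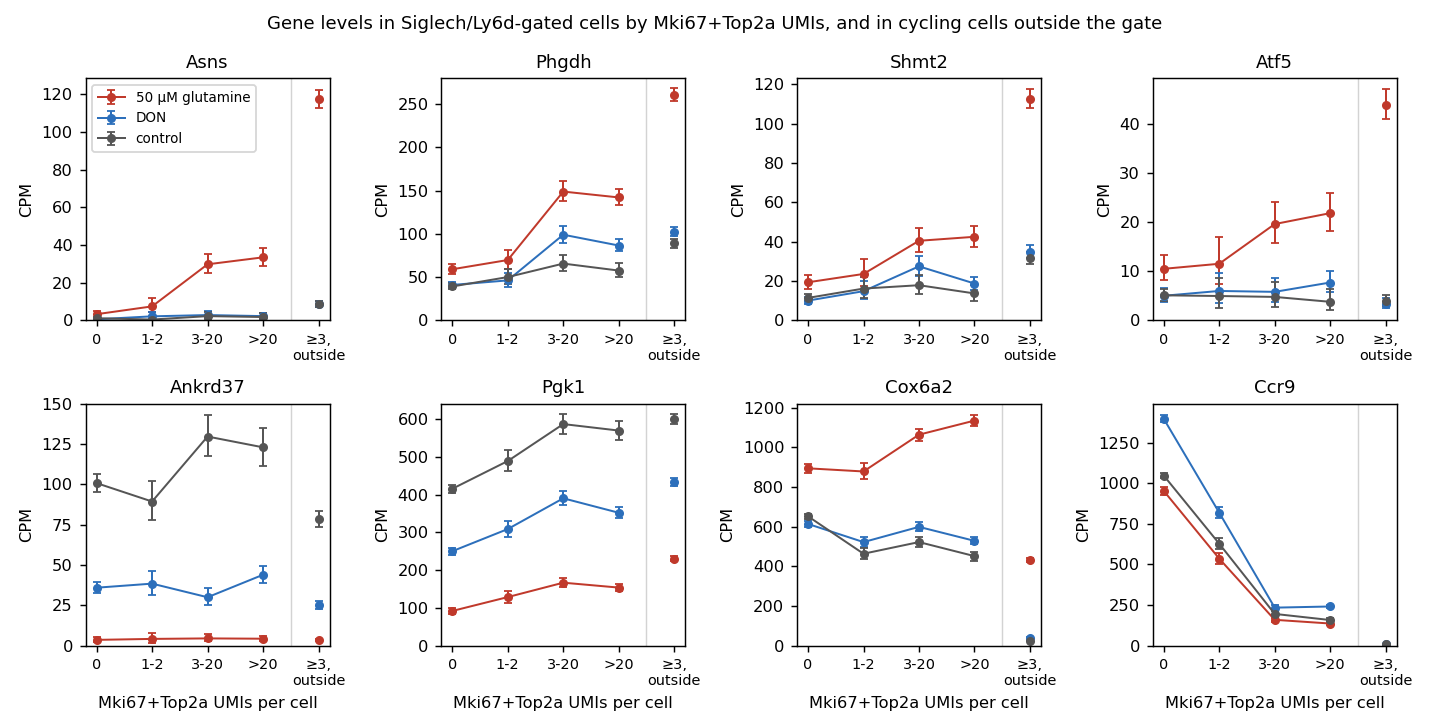
Levels (CPM) of 8 genes in gate cells by their number of Mki67 and Top2a UMIs, and in cycling cells outside the gate (right of the grey line), in each library, with doublets kept. Points are summed UMIs of 1 library and bars exact 95% Poisson intervals; each axis starts at 0. Asns at 50 µM goes up with the number of Mki67 and Top2a UMIs, with 3.25 CPM in cells without them and 33.4 CPM in cells with more than 20, Ankrd37 and Pgk1 keep the order 50 µM, DON, control from lowest to highest in every class, and within the gate Ccr9 is lower in both classes with at least 3 such UMIs than in both classes with fewer.

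Genes of pDC identity differed in both directions at 50 µM and little with DON. Of 30 measured genes, 4 were at least 1.5-fold higher and 4 lower at 50 µM, with a median of 0.23 (0.09 without marked doublets, where the median over all genes was also 0.09), and none passed 1.5-fold with DON, with a median of 0.12 (-0.03 without). Cox6a2 had 1104 CPM at 50 µM (1084 to 1124), 555 with DON (542 to 569) and 485 in control (468 to 502), and without marked doublets 1197, 693 and 710 CPM. In cycling cells outside the gate Cox6a2 had 433, 38.1 and 23.7 CPM, so its higher level at 50 µM was not particular to the members. Plac8, a small cysteine-rich protein of pDC and myeloid cells, had 3194, 1960 and 1443 CPM. The other higher genes were Runx2, which pDC need to leave the bone marrow (633, 450 and 375 CPM), and the repressor gene Zeb2 (0.61). The lower ones were Klra17 (-0.79), Upb1 (-0.78), Irf7, the factor that drives interferon genes (52.3 CPM at 50 µM, 80.5 with DON and 91.5 in control), and Ly6a (-0.70). Without marked doublets Klra17 had 3.24, 2.42 and 5.62 CPM and a ratio of -0.37 at 50 µM, and Runx2 (0.54) and Zeb2 (0.47) were likewise no longer past 1.5-fold.

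The main lineage genes had ratios below 1.5-fold in both comparisons. Bst2 had 1391 CPM at 50 µM, 1541 with DON and 1410 in control. Tcf4 had log2 ratios of 0.46 at 50 µM and 0.08 with DON, which were 0.30 and -0.06 without marked doublets, and Spib had 153, 139 and 110 CPM. Tlr9 was low in all 3 libraries, with 1.04, 1.09 and 1.22 CPM, and so was Dntt, the DNA polymerase of early lymphoid cells (3.03, 1.81 and 3.04 CPM). Of 22 genes of nucleic acid sensing, 2 were lower at 50 µM, Irf5 (27.8 CPM, against 39.3 with DON and 57.2 in control) and Irf7, and none was past 1.5-fold with DON. Without marked doublets Irf5 had 25.7 CPM at 50 µM, 28.6 with DON and 38.4 in control, and its ratio of -0.50 at 50 µM was not past 1.5-fold.

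Transcription factors of dendritic and lymphoid cells had 3 of 30 higher and 5 lower at 50 µM, with a median of 0.14, and none of 31 higher and 2 lower with DON, with a median of 0.01. The higher ones were Runx2, Zeb2 and Cebpb (0.72), and the lower ones Id2, Batf3, Irf4 (-0.79), Irf7 and Zbtb46 (-0.68). Without marked doublets Cebpb (0.29), Irf4 (-0.45) and Zbtb46 (-0.28) were not past 1.5-fold. With DON the lower ones were Id2 (-1.31) and Batf3 (-1.20), both of which conventional dendritic cells express.

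Among receptors of precursors and growth factors, 3 of 16 were higher and 1 lower at 50 µM. Cd93 had 66.1 CPM at 50 µM (61.3 to 71.2), 43.3 with DON (39.5 to 47.4) and 32.7 in control (28.5 to 37.4). Cx3cr1, the fractalkine receptor, had 53.3, 42.6 and 28.3 CPM, and the precursor factor Sox4 had a ratio of 0.77. Without marked doublets the ratios were 0.47 for Cx3cr1 and 0.53 for Sox4, which are under 1.5-fold. Flt3 had 144, 124 and 104 CPM, and Il7r, the interleukin-7 receptor of early lymphoid cells, had 94.9, 76.1 and 78.5 CPM. In Cd93, Cx3cr1 and Flt3 the 50 µM library was highest and control lowest. Csf2ra, a receptor chain for GM-CSF, was lower in both treated libraries, at 28.5 CPM at 50 µM and 32.6 CPM with DON against 52.9 in control, and without marked doublets at 25.9 and 24.8 against 34.95 CPM.

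Most MHC class II genes, which present antigen to T cells, were lower in both treated libraries, and most H2-Ab1 UMIs of the control members lay in marked doublets. Of 13 measured MHC class II genes, 10 were lower at 50 µM and 8 with DON and none higher, with medians of -1.45 and -0.75 with doublets kept and of -0.72 and -0.48 without. In non-cycling gate cells, with doublets kept, 8 of 13 were lower at 50 µM and 6 with DON and none higher. The medians there were -0.69 and -0.49. H2-Ab1 had 340 CPM at 50 µM, 594 with DON and 1726 in control, and without marked doublets 206, 227 and 536 CPM. Marked doublets held 50.5% of its member UMIs at 50 µM, 74.2% with DON and 84.9% in control. Of the remaining members of the thinned gate, 31.9% at 50 µM, 30.6% with DON and 43.9% in control had an H2-Ab1 UMI. The part of doublets that were not marked was not tested.

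The 8 lowest genes of at least 50 CPM at 50 µM were Ankrd37, Aldoc, Plbd1, Serpinb6b, Fscn1, Ccl5, Naaa and Rab7b, and with DON Naaa, Plbd1, Ankrd37, H2-Eb1, H2-Ab1, Ckb, Id2 and H2-Aa. Naaa, a lipid amidase abundant in type 1 conventional cells, had 16.5 CPM at 50 µM, 28.4 with DON and 123 in control, and without marked doublets 11.4, 12.5 and 58.4 CPM. Fscn1, the actin bundler of mature dendritic cells, had 7.77, 46.0 and 78.9 CPM, and without marked doublets 1.73, 4.56 and 8.43 CPM. Id2, an inhibitor of Tcf4 and other E proteins, had 68.6, 122 and 309 CPM, and without marked doublets 46.5, 64.7 and 140 CPM, and Batf3, a factor of type 1 conventional cells, had 2.18, 10.3 and 30.3 CPM. All 4 kept the order with 50 µM lowest and control highest without marked doublets as well, at lower levels.

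Genes that respond to type I interferon were lower at 50 µM, by less without marked doublets. Of 27 measured, 14 were lower and none higher at 50 µM, with a median of -0.62 (-0.33 without marked doublets), and 3 were lower with DON, with a median of -0.32 (-0.20 without). Rtp4, a chaperone of receptors, had 5.97 CPM at 50 µM, 12.5 with DON and 17.5 in control, but 4.16, 5.90 and 4.99 CPM without marked doublets. Phf11b had 8.91, 15.2 and 31.8 CPM, and 8.32, 9.39 and 17.2 CPM without. Immediate early genes had 5 of 12 lower at 50 µM and 3 with DON, with medians of -0.51 and -0.37, and -0.25 and -0.33 without marked doublets. Junb, the most different of the abundant ones, had 37.9 CPM at 50 µM, 54.0 with DON and 97.6 in control, with doublets kept. Marked doublets held 35.8%, 65.4% and 74.6% of its UMIs in that order.

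The median of NF-kB and inflammation genes at 50 µM differed in sign with and without marked doublets. Of 21, 8 were lower at 50 µM, with a median of -0.30 that was 0.16 without marked doublets, and with DON 3 were lower, with a median of -0.28 that was -0.12 without. The survival gene Bcl2a1b, which mature dendritic cells express and which has near-identical copies that reads can be split between, had 6.82, 23.7 and 41.5 CPM with doublets kept and 3.12, 2.415 and 2.50 CPM without.

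Cell cycle lists were slightly above the median of all genes with doublets kept. At 50 µM 8 of 46 S phase genes were 1.5-fold higher, with a median of 0.42 (0.18 without marked doublets), and none of 71 G2 and M phase genes was, with a median of 0.27 (-0.03 without). With DON none of either list passed 1.5-fold, with medians of 0.20 and 0.22 (0.06 and 0.03 without). In non-cycling gate cells at 50 µM, 22 of 37 measured S phase genes were 1.5-fold higher, with a median of 0.63. Of G2 and M phase genes 4 of 31 were, with a median of 0.33, where the median over all genes was 0.15. Those cells are called non-cycling by Mki67 and Top2a alone. Dtl, which targets proteins for destruction during replication, had 87.6 CPM at 50 µM, 61.4 with DON and 49.6 in control, and Mcm5, a subunit of the replicative helicase, had 147, 120 and 105 CPM. Of 33 cyclins, kinases and inhibitors 3 were higher at 50 µM, with a median of 0.25 (0.02 without marked doublets), and 1 lower with DON, with a median of 0.15 (0.01 without). The higher ones were Cdk6, Skp2, which targets cell cycle inhibitors for destruction (49.9, 33.3 and 27.98 CPM), and E2f7, a repressor of S phase genes (37.9, 25.7 and 22.4 CPM), whose ratio was 0.41 without marked doublets. The cyclins themselves differed less. Ccnd1 had 786 CPM at 50 µM, 978 with DON and 903 in control, Ccnd3 had 228, 267 and 248, and Ccnb1 had 138, 144 and 123 CPM.

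The promoters of the cell cycle genes were searched for the element that many G2 and M phase promoters hold. The cell cycle homology element (TTTGAA or TTTAAA, on both strands) was in 47 of 62 windows of G2 and M phase genes (75.8%), from 56 of 71 genes with an entry, in 8 of 38 windows of S phase genes (21.1%), and in 27.6% of 32851 windows in all.

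With DON, the 8 highest genes of at least 50 CPM were Pf4, Ctla2a, S100a8, Nrgn, Ngp, S100a9, Gem and Hist2h2ac, and for 3 of these most UMIs came from 1 cell. Pf4, platelet factor 4, had 398 CPM with DON, against 36.2 in control, but 1 cell held 97.9% of its UMIs with DON and 1 cell 80.7% in control. For Ctla2a 1 cell held 91.9% of the DON UMIs, and for Nrgn, neurogranin, which platelets also make, 1 cell held 82.0%. Marked doublets held 0.865% of the Pf4 UMIs, 1.29% of the Ctla2a UMIs and 5.48% of the Nrgn UMIs with DON. S100a8 and S100a9, which form the calprotectin of neutrophils, had 84.5% and 87.7% of their DON UMIs in 5 cells. Gem, a small GTPase, was spread over 287 of 787 cells with DON, and had 103 CPM at 50 µM, 101 with DON and 62.8 in control. Hist2h2ac, a histone gene, had 40.2 CPM at 50 µM, 79.8 with DON and 50.6 in control. Without marked doublets the DON ratios were 0.44 for Gem and 0.52 for Hist2h2ac.

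The other lists had few members past 1.5-fold. Of 21 NRF2 targets, 3 were higher at 50 µM, Txnrd1, Gsr (0.58 without marked doublets, under 1.5-fold) and Gclc, and none with DON. Txnrd1, a thioredoxin reductase, had 71.6 CPM at 50 µM, 44.3 with DON and 37.1 in control. Of p53 targets 1 of 18 was higher and 1 lower at 50 µM, Ddb2 (0.61) and Btg2 (-0.73), and 2 of 17 were lower with DON, Bbc3 (-0.67) and Cdkn1a (-0.59). Without marked doublets Btg2 (-0.44) at 50 µM and Bbc3 (-0.56) and Cdkn1a (-0.45) with DON were under 1.5-fold. None of the 28 genes of MYC and ribosome biogenesis, the 15 of MHC class I or the 13 of the mitochondrial genome passed 1.5-fold in either comparison. Of 23 genes of the unfolded protein response 1 was higher at 50 µM, the sensor Ern1, with 40.3 CPM, against 24.3 with DON and 17.8 in control, and none passed 1.5-fold with DON. Of 19 apoptosis genes 1 was higher and 3 lower at 50 µM and 1 lower with DON, with Bcl2 (0.71) the higher one and Bcl2a1a (-1.48), Bcl2a1b (-1.98) and Bcl2a1d (-0.87) the lower ones at 50 µM, and Bcl2a1b (-0.69) with DON. Without marked doublets these ratios were 0.22 for Bcl2, -0.12 for Bcl2a1a, 0.12 for Bcl2a1b and 0.0094 for Bcl2a1d at 50 µM, and -0.016 for Bcl2a1b with DON, all under 1.5-fold. The mitochondrial median was 0.20 at 50 µM and 0.13 with DON.

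**Figure D5:**
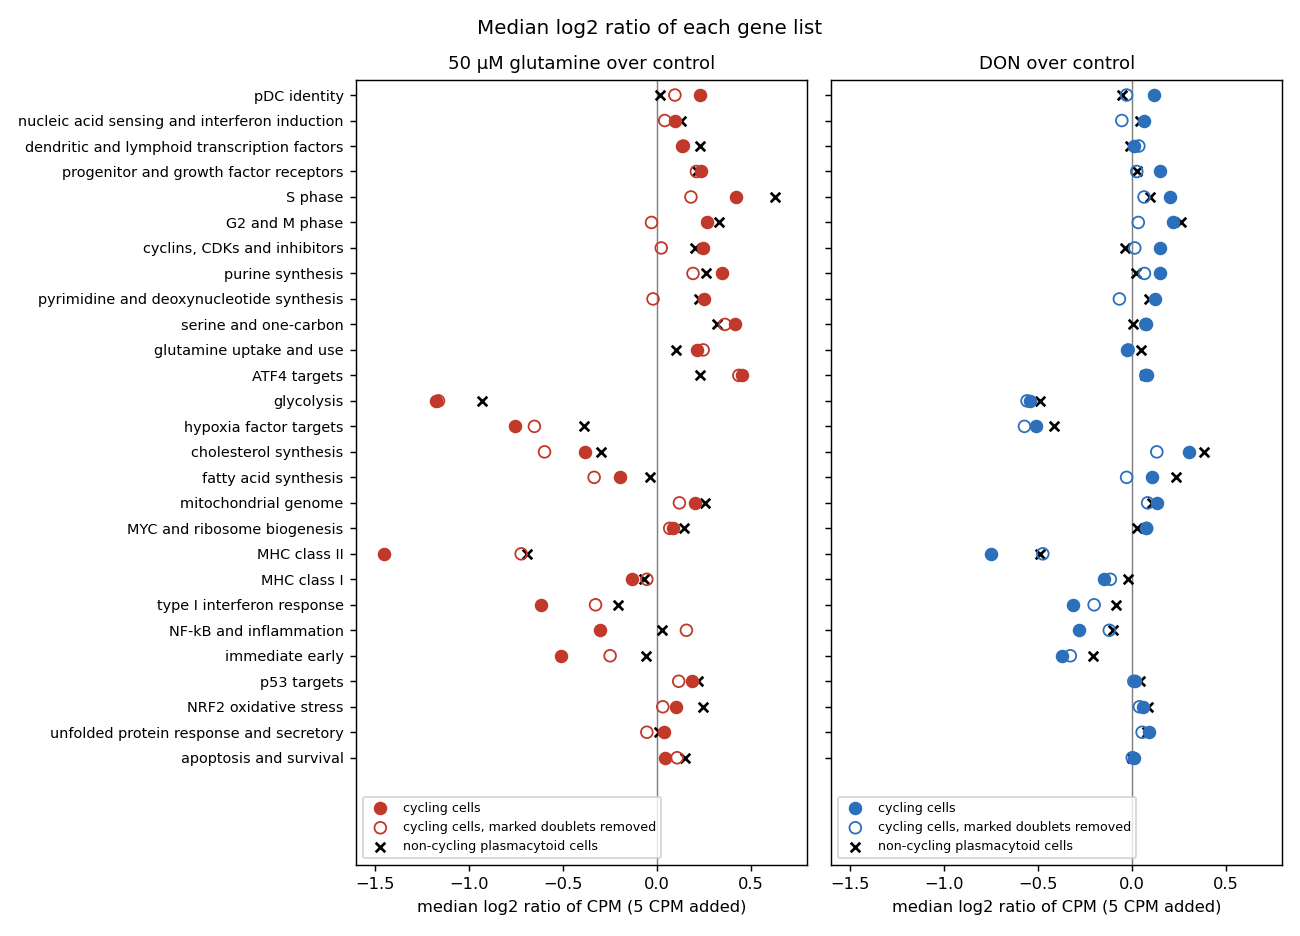
Median log2 ratio (5 CPM added) of each gene list at 50 µM over control (left) and with DON over control (right), in cycling cells (filled), in cycling cells without marked doublets (open) and in non-cycling gate cells (crosses). Glycolysis lies at -1.18 and -0.54 and ATF4 targets at 0.45 and 0.08 in cycling cells at 50 µM and with DON, and the filled and open points lie furthest apart for MHC class II and NF-kB genes at 50 µM.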

How the data were processed

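The deposited files hold raw counts, as UMIs per gene and barcode for 32285 genes in each of 3 single-cell libraries, which the authors made with Cell Ranger, per the file headers version 6.0.0 and per the submitters' processing notes version 3.1.0 with the genome mm10. The labels name no doublet step.

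For each library, the UMI counts of a class of cells were added up and scaled to CPM. With 1 library per condition there was no test between conditions, and ratios carry 5 added CPM. Doublets were marked per library with Scrublet in scanpy 1.11.5 (expected rate 0.08). Thinned values draw 4000 UMIs per cell without replacement and leave out shallower cells. Python 3.11.15, numpy 2.4.6, scipy 1.17.1 and pandas 2.3.3 were used. The calculations were tested on simulated data.

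Genes were named by a rule: in each comparison the 8 highest and 8 lowest of at least 50 CPM without the 8 genes of the membership rule, up to 3 genes per list past 1.5-fold, and a fixed set of pDC, cell cycle and response genes. Others named for a role, such as Csf2ra, Gsr and Irf5, passed 1.5-fold in their list. Some genes that the rule names are not reported here. The members and the 27 lists (666 genes, 4 not measured here) were chosen with earlier results of these data known. Promoter windows are those of RefSeq for GRCm38.p6, and gene positions come from GENCODE for GRCm38, which held 99.6% of the gene identifiers. Alternatives covered doublets, the limits of the rule, depth, scaling, the added CPM, the minimum level and equal weight for each cell.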

Additional observations from a re-analysis of the deposited data

Results flagged for a closer look

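Ngp, a neutrophil granule gene, had opposite directions in cycling and non-cycling gate cells at 50 µM, with log2 ratios over control of 1.07 in cycling and -1.08 in non-cycling cells. Ctla2a, a protease inhibitor gene, had log2 ratios with DON over control of 2.75 in cycling and -1.12 in non-cycling gate cells. With 1 library per condition, neither difference between the classes was tested. Marked doublets held 89.5% of the Ngp UMIs in cycling cells at 50 µM, and 1 cell held 91.9% of the Ctla2a UMIs in cycling cells with DON.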

How the results depend on the processing

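The order 50 µM, DON, control in the share of cycling plasmacytoid cells was the same under each of the 8 alternatives that change the cells. In that order the shares of all cells were 9.68%, 7.43% and 3.32% without marked doublets, 9.36%, 7.65% and 3.83% with at least 6 Mki67 and Top2a UMIs, 8.06%, 6.84% and 3.29% with at least 4 Siglech UMIs, 7.11%, 6.41% and 3.42% with no UMI of the 4 progenitor genes, 7.21%, 4.23% and 2.06% with the rule applied after thinning, 12.9%, 9.73% and 5.27% among barcodes of 5000 to 30000 UMIs, and 5.08%, 3.93% and 2.17% without cells that held a UMI of another cell type's marker.

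The 2-fold counts moved more. At 50 µM the 21 higher genes became 8 without marked doublets, 13 without cells with another type's marker, 13 under median-of-ratios scaling, 37 and 5 with 1 and 20 CPM added, and 10 from 50 CPM upward. The 117 lower genes became 61 without marked doublets, 62 after thinning, 65 at 5000 to 30000 UMIs, 71 without cells with another type's marker, 59 with 20 CPM added, 59 from 50 CPM upward, and 64 with each cell weighing equally. With DON the 11 higher genes became 4 without marked doublets, 7 with at least 6 Mki67 and Top2a UMIs, 6 with no progenitor gene, 4 after thinning, 6 at 5000 to 30000 UMIs, 2 without cells with another type's marker, 7 with 20 CPM added and 6 from 50 CPM upward. The 31 lower genes became 12 with 20 CPM added, 13 from 50 CPM upward and 19 with each cell weighing equally.

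Against non-cycling cells, the 374 higher genes became 226 from 50 CPM upward and the 87 lower genes 44 with 20 CPM added and 56 from 50 CPM upward. Against cycling cells outside the gate, the 161 higher genes became 99 with 20 CPM added, and the 25 lower genes became 70 without marked doublets, 45 after thinning, 50 without cells with another type's marker, 40 with mitochondrial and ribosomal protein genes out of the total, 12 with 20 CPM added, 39 and 15 from 5 and 50 CPM upward, and 65 with each cell weighing equally. The cause of these moves was not tested, except that a higher minimum level leaves fewer genes.

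Of 107 named ratios past 1.5-fold, 96 kept their sign under every alternative. The following log2 ratios reversed. At 50 µM they were Ccl5 (0.94) without cells with another type's marker, Ngp (-0.31) with no progenitor gene, and S100a9 (-0.40), Bcl2a1b (0.12) and Bcl2a1d (0.0094) without marked doublets. With DON they were Pf4 (-0.053 with no progenitor gene and -0.27 without cells with another type's marker), Cdkn1a (0.12) and Ccl5 (2.35) without cells with another type's marker, and Il12b (0.013), Ccl5 (0.60) and Bcl2a1b (0.40) at 5000 to 30000 UMIs. S100a8 with DON was at 0 without cells with another type's marker. Of 26 list medians of at least 0.2 in size, 22 kept their sign under every alternative. The exceptions were G2 and M phase (-0.03) and pyrimidine genes (-0.02) at 50 µM without marked doublets, and NF-kB genes, which reached 0.21 at 50 µM without marked doublets, where the genes of at least 5 CPM were chosen again after the doublets were taken out, and 0.07 with DON at 5000 to 30000 UMIs.

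No paired analysis was possible because there was 1 library per condition and the labels carry no replicate numbers. Leaving out a replicate was not possible either, so the spread between cultures is unknown and intervals cover counting error only. The counts of fewer than 30 UMIs behind Asns with DON and in control limit its ratio.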
